A study of Mus musculus with 4 samples.

Results

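The genes described are 45 antioxidant and glutathione genes: the superoxide dismutases, catalase, peroxiredoxins, glutathione peroxidases, the enzymes that make, recycle and use glutathione, the thioredoxin system, the metallothioneins and the regulators Nfe2l2 and Keap1. They were taken by symbol, through the name on the array or the current symbol of the RefSeq accession, from the 21292 gene symbols of the array. All 45 had at least 1 probe, 71 probes in all, and 42 of them were tested among 16806 features. The samples were thymic epithelial cells (TECs), the stromal cells that support and select developing T cells, sorted as CD45- EpCAM+ cells from mice and measured on single-colour microarrays. In the Meis1-CKO group, mice carried K14-CreER, a tamoxifen-inducible Cre recombinase, and Meis1fl/fl. In the control group, which the labels call WT, mice carried the same Cre and Meis1fl/+, so that 1 Meis1 allele could be deleted there too. Mice of both groups were 3 weeks old, were given 1 mg tamoxifen daily for 3 days, and their TECs were sorted 4 days later. Each group had 2 pools of 6 mice (Meis1-CKO 1 and 2, control 1 and 2), and 10 ng of RNA was amplified per array. The Cre is driven by the promoter of keratin 14, a keratin of medullary TECs and other basal epithelia, and Meis1 encodes a homeobox transcription factor.

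Cells dispose of superoxide in steps: superoxide dismutases turn it into hydrogen peroxide, which catalase, glutathione peroxidases and peroxiredoxins reduce to water. Glutathione, a cysteine-containing tripeptide, and thioredoxin supply the electrons to the glutathione peroxidases and peroxiredoxins, and reductases that use NADPH restore both. Many of these genes are induced by NRF2, the protein of Nfe2l2, which KEAP1 holds in the cytoplasm and marks for degradation until oxidants or electrophiles modify it.

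Probes of 60 bases read each gene. For 5 of the genes, the array's own probe sequence is shown. Each of these probes maps, per the array files, over a genomic interval longer than itself. It so reads bases that are not contiguous in genomic DNA, as do probes of some other members, Keap1 and Gss among them. On mm9 they lie at chr9:78046172-78047344 (Gsta4, plus strand), chr1:169305625-169307435 (Mgst3, minus strand), chr10:79518691-79518842 (Gpx4, plus strand), chr3:96363085-96363259 (Txnip, plus strand) and chr3:121962174-121964809 (Gclm, plus strand). The files do not say which bases are coding. The Gclm probe is shown since its signal was well above background on no array.
Gsta4: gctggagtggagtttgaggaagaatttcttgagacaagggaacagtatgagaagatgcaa
Mgst3: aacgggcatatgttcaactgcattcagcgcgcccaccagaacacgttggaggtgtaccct
Gpx4: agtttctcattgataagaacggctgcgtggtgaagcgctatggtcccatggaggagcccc
Txnip: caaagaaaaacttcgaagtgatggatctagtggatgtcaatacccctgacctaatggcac
Gclm: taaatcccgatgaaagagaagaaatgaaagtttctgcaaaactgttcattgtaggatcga

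The share of spots well above background lay between 58.6% and 63.6%, and no spot was saturated. All levels given here are log2 signals relative to the 75th percentile of the same array, so a level of 0 is that percentile, and all differences are Meis1-CKO minus control on that scale. Meis1 itself read -0.44 and -2.08 in Meis1-CKO 1 and 2, against -0.12 and -0.91 in control 1 and 2, with the brighter of its 2 probes. Its difference was -0.75 (SE 0.69, limma adjusted p = 1.00), and 0.08 with Meis1-CKO 2 left out. The dimmer probe was above background in neither Meis1-CKO pool (-3.77 and -4.74) and in both controls (-3.19 and -3.23), a measured difference of -1.04. The probes are not known to lie in the deleted part, so they do not check the labels. Per the file headers, Meis1-CKO 1 and control 1 were on 1 slide (slide 1) and Meis1-CKO 2 and control 2 on another (slide 2). Meis1-CKO 2 stood apart: over 16797 features it correlated at 0.865 with Meis1-CKO 1, at 0.857 with control 1 and at 0.884 with control 2, whereas the other pairs of arrays correlated at 0.936 to 0.943.

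The sorted cells carried all 13 of the TEC markers looked for, Epcam and Foxn1 included, well above background on all arrays, and markers of other cells beside them. The summed signal of the TEC list, in units of the 75th percentile, was 558 and 257 in Meis1-CKO 1 and 2, against 663 and 515 in control 1 and 2. The 14 myeloid and dendritic markers summed to 34.4 and 140 in Meis1-CKO 1 and 2, against 31.7 and 38.5 in control 1 and 2, with 13 and 14 of them above background in the Meis1-CKO pools and 11 and 13 in the controls. The pan-leukocyte gene Ptprc, whose protein CD45 the sort selected against, is 1 of these 14 and so part of that sum. It read -0.75 and 5.55 in Meis1-CKO 1 and 2, against 1.44 and 1.19 in control 1 and 2. Meis1-CKO 2 thus held the highest summed myeloid and the lowest summed TEC signal. Single markers varied: on slide 2, 10 of the 13 myeloid markers tested were higher in Meis1-CKO, Tyrobp (4.64) among them. Lyz2 (-0.49), Adgre1 (-0.11) and C1qb (-0.07) were lower there, and Itgam was highest in Meis1-CKO 1 (1.34, against 0.64 in Meis1-CKO 2). Of the TEC markers, Ly75 (1.25) was higher on slide 2. Thymocyte markers summed to 9.68 and 51.1 in Meis1-CKO 1 and 2, against 56.8 and 25.4 in control 1 and 2, where Rag2 was above background on no array. Erythroid markers summed to 8.07 and 3.12 in Meis1-CKO 1 and 2, against 11.95 and 5.45 in control 1 and 2, with Klf1 and Epor among those above background on no array. Fibroblast markers summed to 9.79 and 2.11 in Meis1-CKO 1 and 2, against 8.82 and 3.85 in control 1 and 2. Endothelial markers summed to 0.55 and 4.29 in Meis1-CKO 1 and 2, against 0.55 and 0.38 in control 1 and 2. Of these, Kdr read 1.84 in Meis1-CKO 2 and was above background on no other array. On slide 2 Pecam1 was higher in Meis1-CKO as well (2.48), whereas Tek (-0.83) and Cdh5 (-1.77, not above background there) were lower. Emcn was above background on no array. In such bulk samples, fewer cells of a type and less RNA per cell cannot be told apart.

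**Figure D1:**
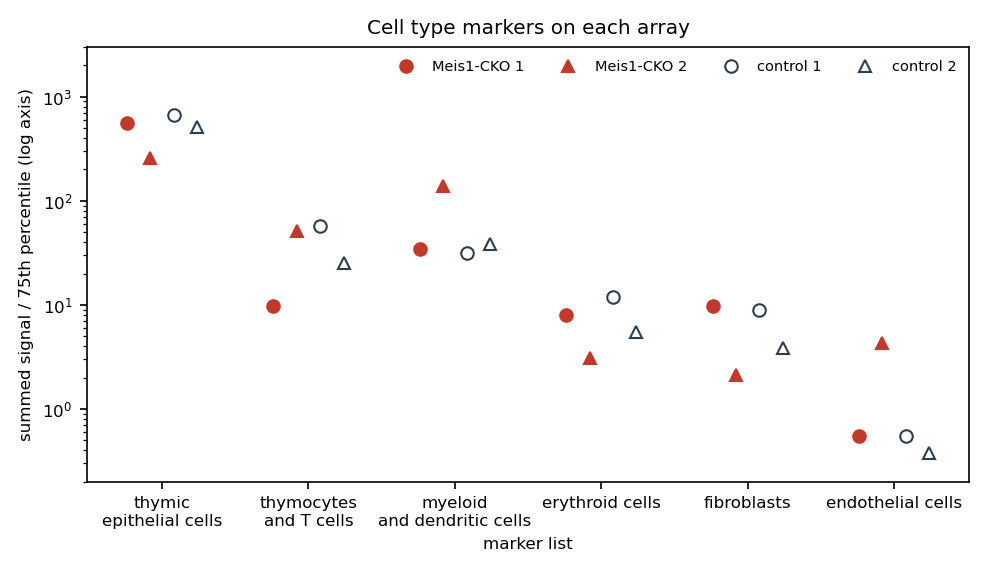
Summed signal of 6 cell type marker lists on each array, in units of the array's 75th percentile, on a log axis. Red filled symbols are the Meis1-CKO pools and open symbols the control pools, with circles for slide 1 and triangles for slide 2. Myeloid and dendritic markers summed highest in Meis1-CKO 2, at 140, and TEC markers summed lowest there, at 257.

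The comparison asked which of these genes differed in expression 4 days after induced deletion of Meis1, and none of the 42 tested passed the test. Their log2 differences lay between -0.70 and 1.13, with standard errors of 0.42 to 0.91 (n = 2 pools a group throughout), and the limma adjusted p-values over all features were all 1.00. The lowest unadjusted p was 0.0769, so 0 of the 42 had an unadjusted p under 0.05, against 2.77% of all features; the background of calls at an adjusted p under 0.05 was 0%. The median difference was -0.09, against -0.05 over all features, and 18 of the 42 read higher in Meis1-CKO (42.9%, against 45.4%). The 95% confidence interval of a difference had a median half-width of 1.23 on the log2 scale. For all 42 genes the interval reached past a 2-fold difference in at least 1 direction.

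Genes on which the groups did not overlap were about as common as among all features. In 6 genes (Gsto1, Gsta4, Nfe2l2, Mt1, Cat and Keap1) both Meis1-CKO pools read above both control pools, 14.3% of those tested against 11.1% of all features. In 6 others (Mgst3, Gpx4, Prdx2, Txnrd1, Txn1 and Gss) both read below, 14.3% against 14.4%. With Meis1-CKO 2 left out, Meis1-CKO 1 lay above both controls for 15 genes and below both for 10, against 29.1% and 31.2% of all features. With Meis1-CKO 1 left out, Meis1-CKO 2 lay above both for 14 and below both for 20, against 32.8% and 41.7%. Meis1-CKO 2 was the highest or the lowest of the 4 arrays for 33 of the 42 genes, 78.6%, against 66% of all features: the highest for 13 (29.1% of all features) and the lowest for 20 (36.9%). Meis1-CKO 1 was the highest for 10 genes and the lowest for 4 (21.7% and 21.6% of all features), control 1 for 13 and 3 (23.5% and 23.7%), and control 2 for 6 and 15 (25.6% and 17.9%).

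**Figure D2:**
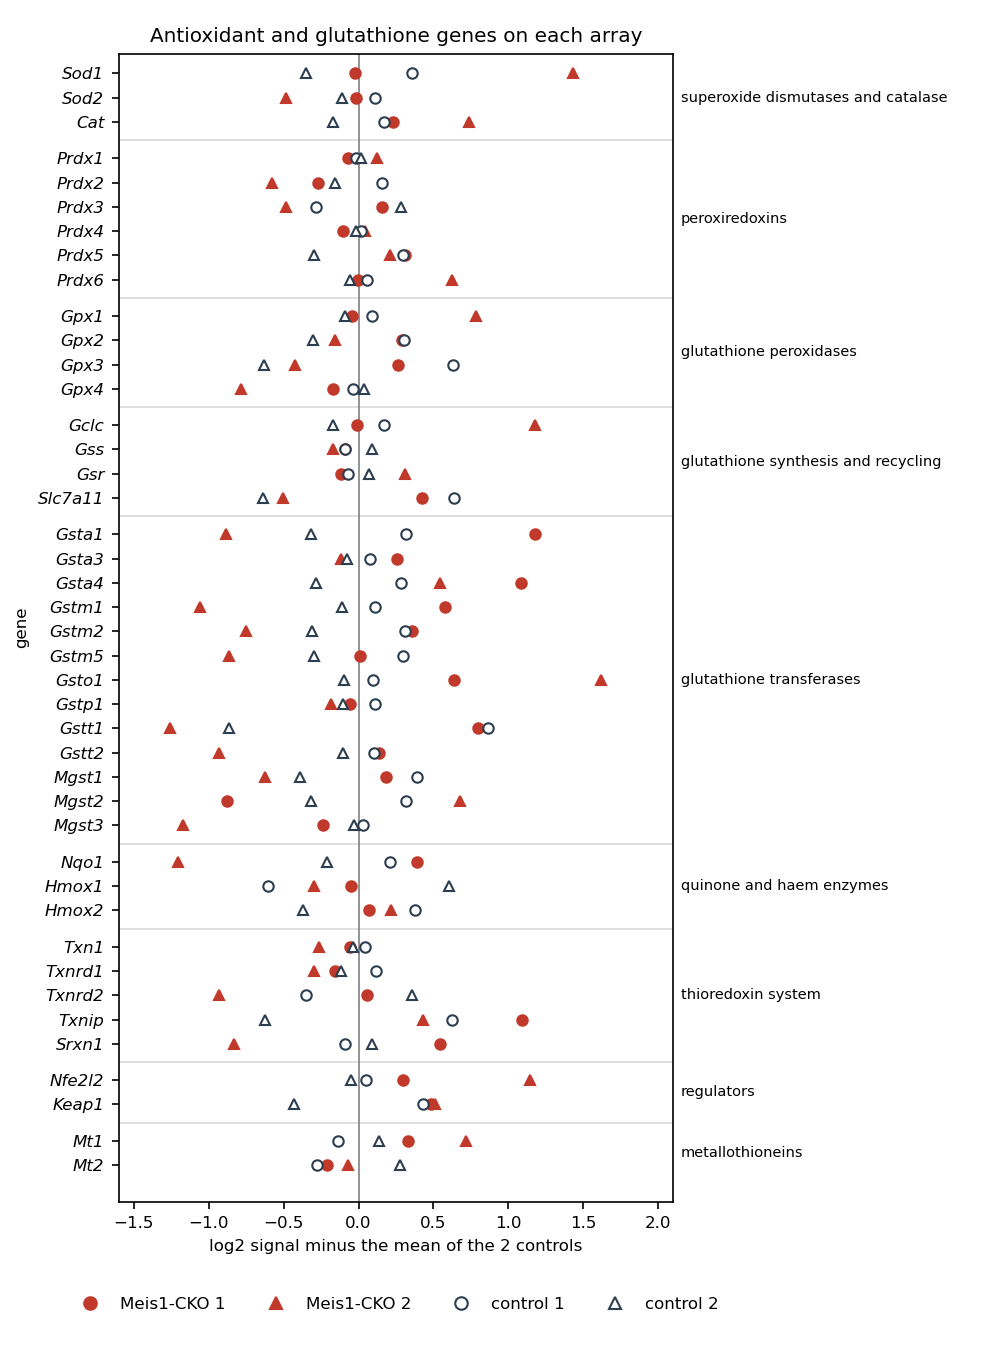
Level of each of the 42 tested genes on each array, as log2 signal minus the mean of the 2 controls, grouped by role. Red filled symbols are the Meis1-CKO pools and open symbols the control pools, with circles for slide 1 and triangles for slide 2. Meis1-CKO 2 lies at an end of the row for 33 genes, and Gsto1 and Gsta4 are among the 6 genes with both Meis1-CKO pools above both controls.

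Within the slides, each holding 1 pool of either genotype, the sign of the difference often disagreed. Read by slide, 19 of the 42 genes were higher in Meis1-CKO on slide 1 and 20 on slide 2, against 50.1% and 43.7% of all features. Of the 42, 8 read higher in Meis1-CKO within both slides (19%, against 20.4% of all features) and 11 read lower within both (26.2%, against 26.5%), and 23 had opposite signs. Slide 1 showed small differences, with a median size of 0.19, against 0.36 over all features, and 1 gene at 2-fold or more (2.38%, against 14.5%). On slide 2 the median size was 0.58, as over all features (0.58), and 7 genes reached 2-fold (16.7%, against 28.4%). All 42 genes were above background on all 4 arrays, as were 20828 of the 24267 probes of the array that passed the filter. The values over all features were not matched to the genes for signal. Across the 42 genes the differences of the slides had a Pearson correlation of -0.17, given as a description, since genes of 1 array share its RNA and its labelling.

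**Figure D3:**
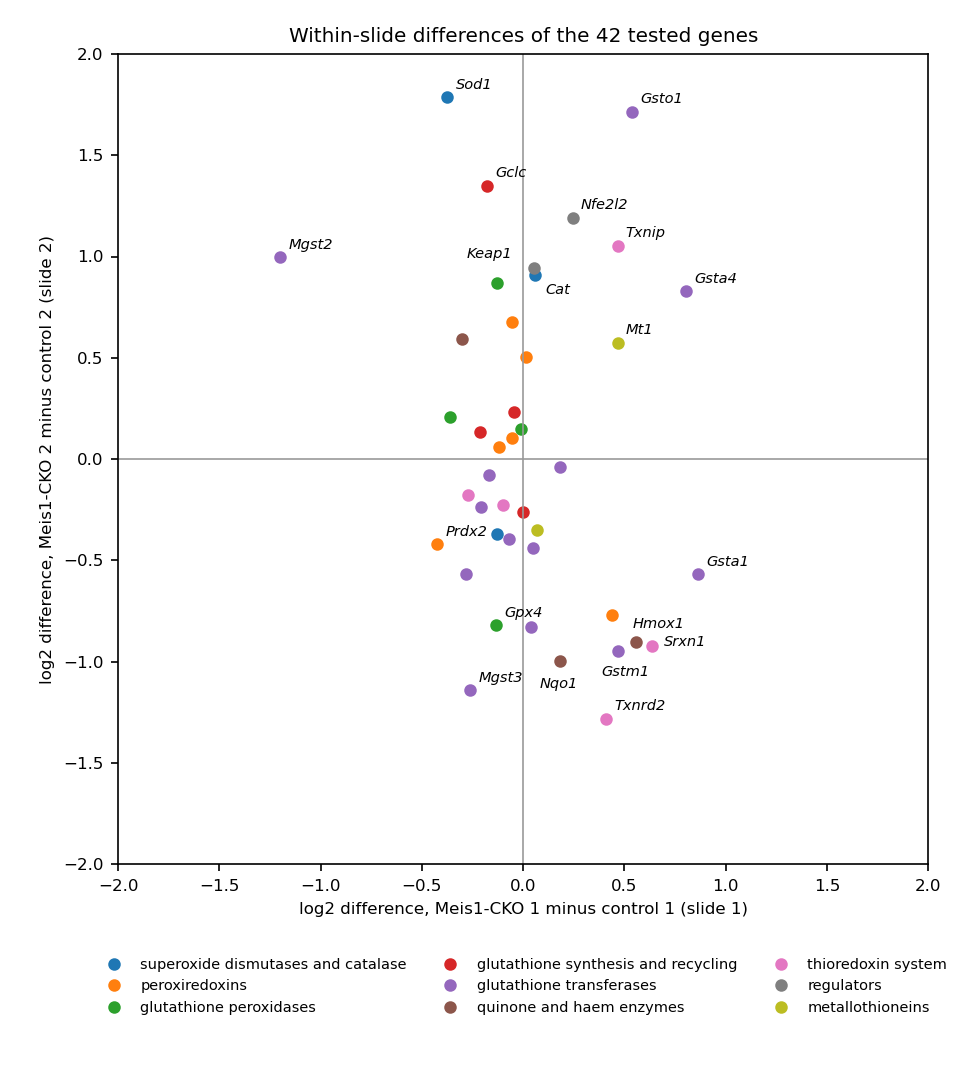
Log2 difference of Meis1-CKO minus control within slide 2 against that within slide 1 for the 42 tested genes, coloured by role, with the genes of smallest p or largest difference named. Genes spread further along slide 2 (-1.28 to 1.79) than along slide 1 (-1.20 to 0.86), and Gsto1, Gsta4, Txnip and Mt1 lie to the upper right.

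Of the superoxide-removing enzymes, Sod1, Sod2 and Cat were measured, and the cytosolic dismutase Sod1 and catalase read highest in Meis1-CKO 2. Sod1 had levels of 6.15 and 7.61 in Meis1-CKO 1 and 2, against 6.53 and 5.82 in control 1 and 2. Its groups overlapped, since Meis1-CKO 1 lay between the controls, and the difference was -0.37 on slide 1 and 1.79 on slide 2 (0.71 over both, SE 0.64, limma adjusted p = 1.00). Cat, the peroxisomal catalase, had 1.62 and 2.12 in Meis1-CKO 1 and 2, against 1.56 and 1.21 in control 1 and 2. The groups did not overlap, and the differences were 0.06 on slide 1 and 0.91 on slide 2 (0.48, SE 0.46, limma adjusted p = 1.00). Sod2, the mitochondrial dismutase, differed by -0.25 (SE 0.45), with -0.13 and -0.37 on slides 1 and 2. The extracellular dismutase Sod3 was well above background on no array and was not tested. Sod1 and Cat, but not Sod2, were highest on the array with the highest myeloid signal, Meis1-CKO 2. That signal summed to 140 there, against 34.4 in Meis1-CKO 1 and 31.7 to 38.5 in the controls. The part of myeloid cells in the values was not tested. Without Meis1-CKO 2, Sod1 differed by -0.02, Sod2 by -0.02 and Cat by 0.23. Sod1 was also at 0.35 without control 2 and at 1.43 without Meis1-CKO 1, Cat at 0.31 and 0.74 without these arrays, and Sod2 at -0.48 without Meis1-CKO 1 and -0.14 without control 1.

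The peroxiredoxins, thiol peroxidases that reduce hydrogen peroxide with thioredoxin or, for Prdx6, glutathione, showed small differences, and 0 of 6 passed. Prdx2, a cytosolic form abundant in red cells, had levels of 5.34 and 5.03 in Meis1-CKO 1 and 2, against 5.76 and 5.45 in control 1 and 2. Both Meis1-CKO pools lay below both controls, and the difference was -0.42 within each slide (-0.42 over both, SE 0.44, limma adjusted p = 1.00). It was -0.27 without Meis1-CKO 2 and -0.27 without control 1. Its other probes gave -0.46 and -0.54 on slide 1 and -0.30 and -0.43 on slide 2. Erythroid markers summed lower in the Meis1-CKO pool of each slide (8.07 against 11.95 on slide 1 and 3.12 against 5.45 on slide 2). On slide 1 the tested markers were split: Hba-a1 (-1.13), Hbb-bt (-1.21) and Alas2 (-0.70) were lower, Slc4a1 (0.52) and Ahsp (0.32) higher. On slide 2 all tested markers were lower. The part of erythroid cells in the Prdx2 values was not tested. Prdx6 differed by -0.06 and 0.68 on slides 1 and 2 and Prdx3, the mitochondrial form, by 0.44 and -0.77. Prdx1 (0.03 over both slides), the endoplasmic reticulum form Prdx4 (-0.03) and Prdx5 (0.26) had differences within 0.26 of 0. The levels of Prdx1 lay between 1.10 and 1.29 on the 4 arrays.

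Of the glutathione peroxidases, which reduce peroxides with glutathione, the cytosolic Gpx1 and the lipid hydroperoxide enzyme Gpx4 read in opposite directions in Meis1-CKO 2. Gpx1 had 6.05 and 6.88 in Meis1-CKO 1 and 2, against 6.18 and 6.01 in control 1 and 2, with differences of -0.13 and 0.87 on slides 1 and 2 (0.37, SE 0.49, limma adjusted p = 1.00). Its groups overlapped, and only Meis1-CKO 2 lay outside the controls. Gpx4, whose loss makes cells prone to ferroptosis, had 4.91 and 4.29 in Meis1-CKO 1 and 2, against 5.04 and 5.11 in control 1 and 2. Neither Meis1-CKO pool reached the controls, and the differences were -0.13 on slide 1 and -0.82 on slide 2 (-0.48, SE 0.46, limma adjusted p = 1.00). Without Meis1-CKO 2 it was -0.17 and without Meis1-CKO 1 it was -0.79. The gastrointestinal Gpx2 (0.07) and the secreted Gpx3 (-0.08) had overall differences near 0, and Gpx7, an endoplasmic reticulum member, was above background on no array and was not tested.

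Glutathione is made by glutamate-cysteine ligase (catalytic subunit Gclc, modifier subunit Gclm) and glutathione synthetase (Gss), from cysteine that the cystine importer Slc7a11 helps to supply. Gclc had 3.16 and 4.36 in Meis1-CKO 1 and 2, against 3.34 and 3.01 in control 1 and 2. Meis1-CKO 1 lay between the controls and Meis1-CKO 2 above them, so the difference was -0.18 on slide 1 and 1.35 on slide 2 (0.59, SE 0.56, limma adjusted p = 1.00), and -0.01 with Meis1-CKO 2 left out. The Gclm probe printed above read between -5.94 and -5.26 on the 4 arrays, with surrogate values on 3 of them, and gave no level for the modifier subunit. Gss differed by -0.001 and -0.26 on slides 1 and 2, Gsr, the reductase that recycles oxidised glutathione, by -0.05 and 0.23, and Slc7a11 by -0.21 and 0.13. None of the 4 genes tested in this group passed.

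The 13 glutathione transferases and related microsomal enzymes, which join glutathione to electrophiles, were all above background on every array, and most read lower in the Meis1-CKO pool of slide 2. On that slide 10 of 13 were lower and 3 higher, where 43.7% of all features were higher. The median difference there was -0.39 (-0.12 over all features). On slide 1, 7 were higher (50.1% of all features were) and the median was 0.04. Gsta3 and Gstp1, counted as lower on slide 2, were higher there with their second probes (0.21 and 0.26). Cell type markers differed on slide 2 too. Of the TEC markers 1 of 13 was higher (median -0.71), of the fibroblast markers tested 0 of 4 (median -1.71) and of the erythroid markers tested 0 of 5 (median -0.87). Of the leukocyte lists, 10 of 13 myeloid markers tested (median 1.49) and 11 of 14 thymocyte markers tested (median 1.37) were higher. Of 2 endothelial markers tested 1 was higher. The part of these cells in the transferase values was not tested. Gsto1, the omega-class enzyme that also reduces dehydroascorbate, had 0.66 and 1.65 in Meis1-CKO 1 and 2, against 0.13 and -0.07 in control 1 and 2. The groups did not overlap, and its difference was the highest of the 42 genes at 1.13 (SE 0.52, 95% confidence interval -0.17 to 2.42, limma adjusted p = 1.00). The slides gave 0.54 and 1.71. Gsta4, an alpha-class enzyme that conjugates the lipid peroxidation product 4-hydroxynonenal, had -0.02 and -0.56 in Meis1-CKO 1 and 2, against -0.82 and -1.39 in control 1 and 2. The groups did not overlap, and the difference was nearly the same on the slides, 0.81 and 0.83 (0.82, SE 0.48, limma adjusted p = 1.00). Without Meis1-CKO 2, Gsto1 differed by 0.63. Gsta4 lay between 0.54 (without control 2) and 1.10 (without control 1) with an array left out, and at 0.43 with normexp background correction.

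Of the microsomal members, Mgst3 read lower in both Meis1-CKO pools. Its levels were 0.78 and -0.16 in Meis1-CKO 1 and 2, against 1.04 and 0.98 in control 1 and 2. The controls lay close together and Meis1-CKO 2 furthest from them, with differences of -0.26 and -1.14 on slides 1 and 2 (-0.70, SE 0.51, limma adjusted p = 1.00). It was -0.235 without Meis1-CKO 2, -1.17 without Meis1-CKO 1 and -0.43 as the mean over its probes. Mgst2 had the widest disagreement of the slides, -1.20 on slide 1 and 1.00 on slide 2, and Mgst1 differed by -0.21 and -0.24. Gstp1, the pi-class enzyme, differed by -0.17 and -0.08, and Gsta3 by 0.18 and -0.04.

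Transferase genes lie in clusters of similar genes, and their neighbours Gstm3, Gstm7, Gsta2 and Gstt3, of the further thiol list, are given beside them, a choice made after their values were seen. In the Gstm cluster on mm9 chromosome 3, where the probes of Gstm5, Gstm7, Gstm3, Gstm2 and Gstm1 lie in this order between positions 107701101 and 107815623, all 5 were lower in the Meis1-CKO pool of slide 2. Gstm4 and Gstm6, of the same family and the same list, were not tested: on slide 2 Gstm4 differed by 0.23 (above background in Meis1-CKO 2 only) and Gstm6 by -2.64 (above background in Meis1-CKO 1 and control 2 only). Gstm1 had 3.44 and 1.80 in Meis1-CKO 1 and 2, against 2.97 and 2.75 in control 1 and 2, and Gstm2 had 1.62 and 0.51 in Meis1-CKO 1 and 2, against 1.57 and 0.95 in control 1 and 2. Gstm5 had -1.49 and -2.37 in Meis1-CKO 1 and 2, against -1.21 and -1.80 in control 1 and 2. The slide 2 differences were -0.95 for Gstm1, -0.44 for Gstm2 and -0.57 for Gstm5, and, for the neighbours Gstm3 and Gstm7, -1.52 and -1.24. On slide 1 these were 0.47, 0.05, -0.28, 0.34 and 1.56 in the same order, so the sign held over the slides for Gstm5 only. On chromosome 9, Gsta1 and its neighbour Gsta2 were highest in Meis1-CKO 1 and lowest in Meis1-CKO 2: Gsta1 had 3.73 and 1.67 in Meis1-CKO 1 and 2, against 2.86 and 2.23 in control 1 and 2, and Gsta2 had 4.81 and 2.94 in Meis1-CKO 1 and 2, against 4.17 and 3.61 in control 1 and 2. Gsta4, whose probe lies on the same chromosome before these, did not share this pattern. On chromosome 10, Gstt1, Gstt2 and Gstt3 were lowest in Meis1-CKO 2, with differences of -0.39, -0.83 and -0.72 on slide 2 and of -0.07, 0.04 and 0.17 on slide 1. Members of a cluster have similar sequences, and how far their probes bind each other's transcripts was not tested.

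Among the quinone and haem enzymes, Nqo1, a quinone reductase widely used as a readout of NRF2, had 4.38 and 2.78 in Meis1-CKO 1 and 2, against 4.20 and 3.78 in control 1 and 2. Meis1-CKO 1 was the highest and Meis1-CKO 2 the lowest of the arrays, with differences of 0.18 and -0.998 on slides 1 and 2 (-0.41 over both, SE 0.65, limma adjusted p = 1.00). The inducible haem oxygenase Hmox1 differed by 0.56 and -0.91, its controls being the furthest arrays apart, at 1.20 and 2.41. The constitutive Hmox2 differed by -0.30 and 0.59. None of the 3 passed.

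Thioredoxin (Txn1) reduces peroxiredoxins and other proteins, and the cytosolic thioredoxin reductase (Txnrd1) and its mitochondrial relative (Txnrd2) restore thioredoxins. Srxn1 restores over-oxidised peroxiredoxins, and TXNIP binds and inhibits thioredoxin. Txn1 had 7.02 and 6.81 in Meis1-CKO 1 and 2, against 7.12 and 7.04 in control 1 and 2, a difference of -0.16 (SE 0.43, limma adjusted p = 1.00), with -0.10 and -0.23 on slides 1 and 2. Both Meis1-CKO pools lay below both controls by these small amounts, as for Txnrd1, which differed by -0.27 and -0.18. Txnip had 4.36 and 3.70 in Meis1-CKO 1 and 2, against 3.89 and 2.64 in control 1 and 2. Its groups overlapped, as control 1 lay above Meis1-CKO 2, but within each slide the Meis1-CKO pool was higher, by 0.47 and 1.05 (0.76, SE 0.60, limma adjusted p = 1.00). It was 0.13 without control 2, 1.38 without control 1 and 0.43 without Meis1-CKO 1. Srxn1 differed by 0.64 and -0.92 and Txnrd2 by 0.41 and -1.28.

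The regulator genes Nfe2l2 and Keap1 both read higher in the Meis1-CKO pools. Nfe2l2 had 1.98 and 2.82 in Meis1-CKO 1 and 2, against 1.73 and 1.63 in control 1 and 2. The groups did not overlap, and the difference was 0.24 on slide 1 and 1.19 on slide 2 (0.72, SE 0.49, 95% confidence interval -0.52 to 1.95, limma adjusted p = 1.00). Keap1 had 1.63 and 1.66 in Meis1-CKO 1 and 2, against 1.58 and 0.72 in control 1 and 2. Only control 2 lay apart from the other arrays, with differences of 0.05 and 0.94 (0.50, SE 0.50, limma adjusted p = 1.00), with 0.07 when control 2 and 0.93 when control 1 was left out. Nfe2l2 differed by 0.29 without Meis1-CKO 2 and by 1.14 without Meis1-CKO 1.

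NRF2 with a small MAF protein binds the antioxidant response element, whose core is TGACNNNGC. The window of 250 bases before to 50 after the gene start, in RefSeq promoters on GRCm38.p6, was available for 38 of the 45 genes. The core occurred on either strand in 10 of these (26.3%), against 14% of the 27025 genes with such a window: Gclm, Gsta3, Gstm5, Mgst1, Mt2, Nfe2l2, Prdx1, Sod1, Srxn1 and Txnrd1. The core TGACAG, which MEIS proteins bind and which shares its first letters with the other motif so that the matches can overlap, occurred in Gsta3, Gstt1 and Slc7a11 (7.89%, against 21.6%). The windows of Nfe2l2 (chr2:75704614-75704913, minus strand), Sod1 (chr16:90220512-90220811, plus strand) and Prdx1 (chr4:116685349-116685648, plus strand) are shown, a choice made after values were seen. Of the 9 tested genes with the element, these were the 3 that read higher on slide 2, by 1.19, 1.79 and 0.10. The others were lower there: Srxn1 (-0.92), Gstm5 (-0.57), Mt2 (-0.35), Mgst1 (-0.24), Txnrd1 (-0.18) and Gsta3 (-0.04, but 0.21 with its second probe). Capitals mark the core or its reverse complement.
Nfe2l2: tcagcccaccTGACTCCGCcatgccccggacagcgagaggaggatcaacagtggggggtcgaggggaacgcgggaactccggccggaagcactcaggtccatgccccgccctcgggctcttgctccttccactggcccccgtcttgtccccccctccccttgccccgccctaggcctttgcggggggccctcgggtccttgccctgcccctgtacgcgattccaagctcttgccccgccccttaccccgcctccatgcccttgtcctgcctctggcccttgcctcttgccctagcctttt
Sod1: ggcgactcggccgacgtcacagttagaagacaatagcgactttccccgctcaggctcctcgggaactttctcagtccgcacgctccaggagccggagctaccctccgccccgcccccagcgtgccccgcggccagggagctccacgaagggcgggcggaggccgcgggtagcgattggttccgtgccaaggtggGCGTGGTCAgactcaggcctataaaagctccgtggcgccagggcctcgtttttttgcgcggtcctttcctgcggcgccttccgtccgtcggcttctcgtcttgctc
Prdx1: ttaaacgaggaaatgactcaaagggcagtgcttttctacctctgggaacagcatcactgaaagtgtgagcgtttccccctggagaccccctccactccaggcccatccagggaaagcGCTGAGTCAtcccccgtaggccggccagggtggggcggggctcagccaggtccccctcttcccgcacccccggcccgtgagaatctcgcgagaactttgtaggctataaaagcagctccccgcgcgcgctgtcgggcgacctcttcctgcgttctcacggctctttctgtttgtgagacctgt
The 9 tested genes with the element had a median difference of -0.14 (-0.43 to 0.72), with 4 higher on slide 1 and 3 on slide 2, and the 27 tested genes whose window lacked it had -0.10 (-0.70 to 1.13), with 12 higher on slide 1 and 13 on slide 2. A match of letters is a description and no sign of binding.

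The metallothioneins Mt1 and Mt2, cysteine-rich proteins that bind zinc and copper, are neighbours on chromosome 8. Mt1 had 2.38 and 2.77 in Meis1-CKO 1 and 2, against 1.92 and 2.20 in control 1 and 2. Both Meis1-CKO pools lay above both controls, with differences of 0.47 and 0.57 on slides 1 and 2 (0.52, SE 0.45, limma adjusted p = 1.00), and 0.33 without Meis1-CKO 2. Mt2 had 6.47 and 6.61 in Meis1-CKO 1 and 2, against 6.41 and 6.96 in control 1 and 2. Its groups overlapped, and it differed by 0.07 and -0.35 (-0.14, SE 0.46, limma adjusted p = 1.00).

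For 15 genes several probes were tested, and 10 of them had differences of 1 sign over all their probes. The brighter Nfe2l2 probes gave 0.72 and 0.98, and the Txnip probes 0.76 and 0.75, although the second Txnip probe differed by 0.08 on slide 1 and 1.43 on slide 2. A further Nfe2l2 probe, listed under a cDNA accession, was above background in Meis1-CKO 2 (-1.49) and in none of Meis1-CKO 1 (-4.12), control 1 (-4.70) and control 2 (-5.05), and was not tested. Being above background on 1 array only, it gives no separate support for the direction of the other Nfe2l2 probes. All 3 Prdx6 probes tested were lower on slide 1 and higher on slide 2, by up to 1.70, as were all 3 Srxn1 probes the other way round. Over both slides the probes differed in sign for Sod1, Gstp1, Prdx4, Slc7a11 and Srxn1. Within each slide, those of Sod1 and of Srxn1 had the same sign. The second Sod1 probe, also listed under a cDNA accession, was dim (not above background in Meis1-CKO 1) and differed by -2.14 and 0.17 on slides 1 and 2, and the second Gstp1 probe by 0.36 and 0.26. For Txnrd2 the probe listed under a cDNA accession stands for the gene, and its other tested probe, listed under the RefSeq transcript, gave -0.81 and -0.17 on slides 1 and 2, so its sign on slide 1 depends on the probe.

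**Figure D4:**
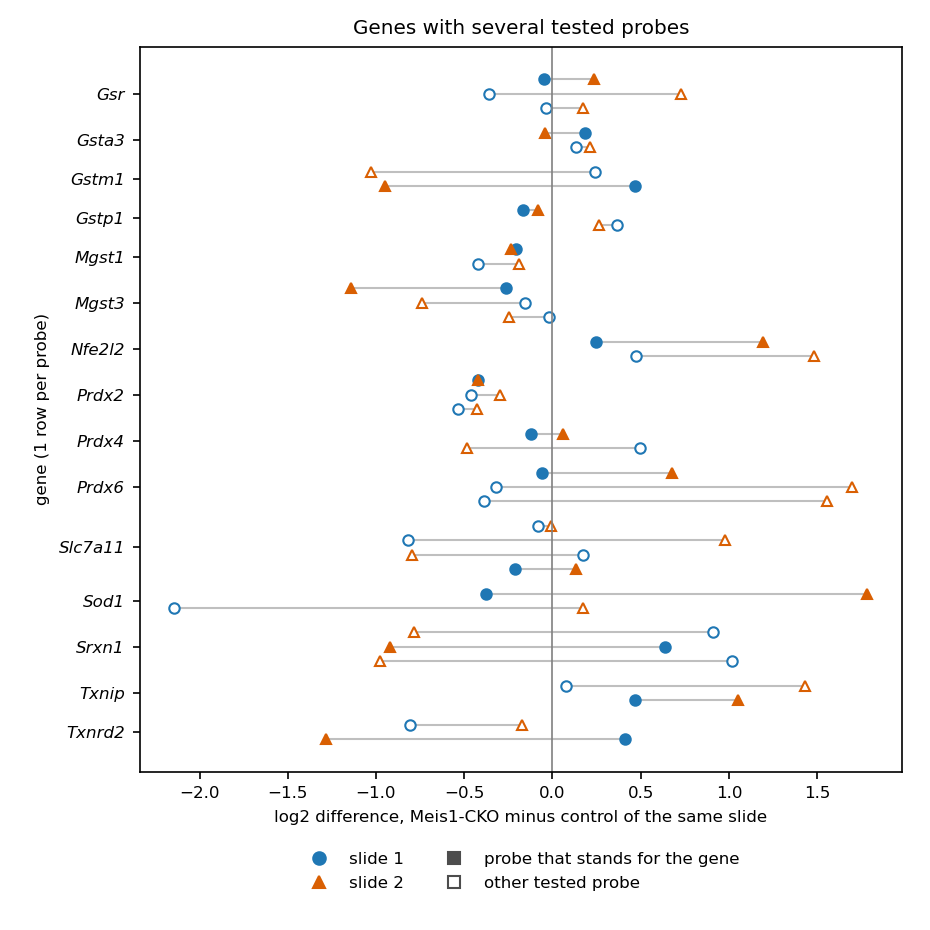
Within-slide log2 differences of Meis1-CKO minus control for each tested probe of the 15 genes with several tested probes, 1 row per probe, with circles for slide 1 and triangles for slide 2. Filled symbols mark the probe that stands for the gene. The 3 Prdx2 probes lie together below 0 on both slides, and the 2 Sod1 probes lie far apart.

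Among genes of the same pathways outside these 45, limma called 0 at an adjusted p under 0.05; at an unadjusted p under 0.05 there were 0, 0 and 1 in the 3 lists that follow. Of 26 other NRF2 target and partner genes, 23 were tested, with a median difference of 0.06 and with 10 higher on slide 1 and 16 on slide 2. Bach1, which encodes a repressor that competes with NRF2 at the element, had -1.10 and -2.25 in Meis1-CKO 1 and 2, against -2.89 and -2.80 in control 1 and 2. The groups did not overlap, Meis1-CKO being higher, by 1.79 and 0.55 on slides 1 and 2 (1.17, SE 0.55, limma adjusted p = 1.00). It was 0.32 with normexp and 0.60 without Meis1-CKO 1. Osgin1, an oxidative stress-induced growth inhibitor, differed by 1.44 and 0.38, Taldo1, a transaldolase of the pentose phosphate pathway, by 0.08 and 1.10, and the glutathione conjugate exporter Abcc1 by 0.0002 and -1.10. Of 37 other thiol redox and glutathione genes, 35 were tested, with a median of -0.04. Glrx, the cytosolic glutaredoxin, had 2.21 and 2.74 in Meis1-CKO 1 and 2, against 1.80 and 0.69 in control 1 and 2, a difference of 1.23 (SE 0.56, limma adjusted p = 1.00) with 0.41 and 2.04 on slides 1 and 2, and of 0.67 without control 2. It was higher within both slides, whereas Gpx6 (-1.34 and -1.19), Gsto2 (-0.48 and -0.87, above background on 1 of 2 Meis1-CKO arrays) and the nucleoredoxin gene Nxn (-0.57 and -0.66) were lower within both. With normexp, Osgin1 was 0.30 (0.91 otherwise), Gpx6 -0.54 (-1.26) and Gsto2 -0.17 (-0.68). As the mean over its probes, Nxn was -0.35 (-0.62 otherwise).

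Of 13 genes for sources of reactive oxygen and nitrogen species, 9 were tested, with a median of 0.17. The gene of inducible nitric oxide synthase, Nos2, had -1.08 and -2.01 in Meis1-CKO 1 and 2, against 0.51 and 1.10 in control 1 and 2. The groups did not overlap, Meis1-CKO being lower, with differences of -1.59 and -3.11 on slides 1 and 2 (-2.35, SE 0.54, unadjusted p = 0.00569, limma adjusted p = 1.00), and -1.41 with normexp. Xdh, the xanthine dehydrogenase gene, was higher within both slides (0.58 and 1.27). Its difference was 0.93 over both, 0.515 as the mean over its probes, 0.40 with normexp and 0.50 without control 2. Cybb, which encodes the catalytic subunit of the phagocyte NADPH oxidase, was also higher within both slides (0.22 and 1.49). Cybb is also 1 of the 14 myeloid markers, whose summed signal was highest in Meis1-CKO 2, and the part of myeloid cells in these values was not tested.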

How the data were processed

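Single-colour array files of 4 sorted TEC pools were used. Per the file headers, Agilent Feature Extraction 9.5.3.1 made the deposited intensity values, subtracting background, detrending and setting surrogates for low values. Probe positions are on mm9. How the authors made their deposited log2 value table is not stated. Its column differences matched those of the scaled signals (slope 1), and each probe was centred on its median. The column medians were -0.06 and -0.12 for Meis1-CKO 1 and 2 and 0.04 and 0.09 for control 1 and 2.

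From there, control spots and spots flagged as outliers were dropped, log2 processed signals were set relative to each array's 75th percentile, and probes well above background on the 2 arrays of either group were tested. The probe with the highest mean stood for its gene. Symbols came from the arrays, updated through a RefSeq table (26690 of 41174 probes by accession). limma 3.58.1 (lmFit, eBayes) in R 4.3.3 compared the groups on 4 arrays, with Benjamini-Hochberg adjustment over 16806 features at a threshold of 0.05, and 5.52 degrees of freedom. The test was checked on simulated data. The number of arrays limits the precision.

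All 45 genes are named, with values on every array for the 12 of smallest p and the 6 of highest signal, and, chosen after values were seen, for other members and neighbouring transferase genes where their role or cluster is described. Up to 4 genes of smallest p are named from each further list. Some genes of these lists and of the marker lists are not reported here. The members and lists were chosen with earlier results of these data known. Alternatives were quantile normalization, normexp, the authors' table, no filter, mean over probes, the slide as a block and each array left out. Slide and replicate number coincide. The labels tie no number to a shared litter or day, so the block is an alternative. Deviations of same-numbered arrays correlated at 0.13. The labels do not say whether the pools of 1 number were sorted together.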

Additional observations from a re-analysis of the deposited data

How the results depend on the processing

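No member passed an adjusted p under 0.05 under any of the 10 alternatives run (lowest 0.194, without Meis1-CKO 1), and no count of calls over all features left 0 except without Meis1-CKO 1, where limma called 200 features higher and 117 lower, taking the spread of the lone array from the other group. With each array left out, these counts ranged from 0 to 200 and from 0 to 117. With the replicate block (slide), 0 were higher, 0 lower and 0 members were called, with 662 features and 0 members at an unadjusted p under 0.05, and no difference changed. Counts at an unadjusted p under 0.05 over all features ranged from 180 (normexp) to 2822 (without Meis1-CKO 1), against 466. The members' median difference of -0.09 was -0.0522 with normexp and ranged from -0.18 to 0.13 with each array left out. The counts of members whose groups did not overlap, 6 higher and 6 lower, ranged from 8 to 16 and from 10 to 20 with each array left out (23.9% to 32.8% and 31.1% to 41.7% of all features), a choice made after seeing the data that has fewer arrays to overlap.

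Of the 42 members, 15 kept their sign with each array left out and 27 did not, 18 of these without Meis1-CKO 2. Over the arrays left out, those that turned without Meis1-CKO 2 only were Sod1 (-0.0215 to 1.43), Prdx1 (-0.0710 to 0.12), Prdx6 (-0.001 to 0.62), Gpx1 (-0.0444 to 0.78), Gclc (-0.0106 to 1.18), Gsr (-0.12 to 0.31), Gstm1 (-1.06 to 0.58), Gstm5 (-0.86 to 0.0126), Gstt2 (-0.93 to 0.14), Nqo1 (-1.21 to 0.39), Txnrd2 (-0.93 to 0.0553) and Srxn1 (-0.83 to 0.55), and, outside the list, Taldo1 (-0.12 to 1.30) and Meis1 (-1.57 to 0.0782). Without Meis1-CKO 2 or a control they were Prdx3 (-0.49 to 0.15), Gpx3 (-0.71 to 0.55), Gstm2 (-0.75 to 0.36), Gstt1 (-1.26 to 0.80), Mgst1 (-0.63 to 0.18) and Slc7a11 (-0.68 to 0.60). Prdx4 (-0.10 to 0.0439) turned without Meis1-CKO 1 only. Without Meis1-CKO 1 or a control they were Gpx2 (-0.24 to 0.37), Gsta1 (-0.88 to 1.18), Gsta3 (-0.12 to 0.26) and Mgst2 (-0.88 to 0.68), and without control 2 only Prdx5 (-0.0374 to 0.56), Hmox1 (-0.78 to 0.43), Hmox2 (-0.23 to 0.52) and Mt2 (-0.42 to 0.14). With the mean over probes Sod1 turned to -0.14 and Gstp1 to 0.10, since their probes differed in sign over both slides. Prdx1 read -0.006 with quantile normalization and Slc7a11 0.0006 with normexp. The cause was not tested.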
